A study of Homo sapiens with 6 samples.

Results

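The genes described here are 10 transcripts of the integrated stress response and the unfolded protein response, namely ATF3, ATF4, DDIT3, TRIB3, ASNS, CHAC1, PPP1R15A, HSPA5, HERPUD1 and DNAJB9. They were chosen by name, with earlier results of these data known, and each was read from a probe set that carried that gene symbol alone. All 10 were measured, each by 1 probe set, among 13139 genes with such a probe set. The samples were HCT116 cells, a human colon carcinoma line, of BRCA2 knockout genotype (BRCA2-/-, 3 arrays) and of wild-type genotype (3 arrays). The knockout had been derived from the wild-type line by targeting both alleles of BRCA2, a mediator of homologous recombination, in turn by gene targeting. The labels name no stress agent, and both genotypes were grown in McCoy's 5A medium with 10% fetal bovine serum and 20 mM L-glutamine. The labels call the arrays of a genotype technical replicates and do not say which knockout clone was used, so the p-values measure the spread between arrays, and loss of BRCA2 cannot be told apart from any other difference between the lines.

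Cells answer several kinds of stress through a shared switch. Kinases that sense misfolded protein in the endoplasmic reticulum (PERK), missing amino acids (GCN2), double-stranded RNA (PKR) or haem shortage (HRI) phosphorylate the translation factor eIF2 alpha, which slows protein synthesis in general but favours translation of ATF4. ATF4, a bZIP transcription factor, then drives genes for amino acid supply and for further stress regulators, among them ATF3, the proapoptotic factor CHOP (encoded by DDIT3) and a subunit that directs a phosphatase back to eIF2 alpha. In parallel, the sensor ATF6, and the sensor IRE1 through XBP1, raise chaperones and degradation factors of the endoplasmic reticulum. ATF4 is controlled largely in translation, which RNA levels do not show, and ATF3 is also an immediate-early gene that responds to growth factor, MAP kinase and p53 signals.

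The promoters of these genes hold short elements through which such factors act, and they are shown here because members with estimated differences of opposite sign carry elements of the same kinds. RefSeq windows of GRCh38.p14, from 250 bases before to 50 bases after each annotated start, were matched by symbol for all 10 genes (16 windows, since some genes have several starts). Each window was searched on both strands for 4 motifs: CARE, the element bound by C/EBP-ATF dimers (TGATGNAA), CRE (TGACGTCA), and the endoplasmic reticulum stress elements ERSE (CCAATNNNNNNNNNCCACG) and ERSE-II (ATTGG and CCACG with any single base between them). No 2 of the matches overlapped. In the 5 stretches below, each of 100 bases on the strand of the gene, the capitals mark the matches.
ATF3 (chr1:212565157-212565256, plus strand): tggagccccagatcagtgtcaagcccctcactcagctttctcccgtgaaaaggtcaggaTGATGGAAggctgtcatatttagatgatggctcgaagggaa
CHAC1 (chr15:40953221-40953320, plus strand): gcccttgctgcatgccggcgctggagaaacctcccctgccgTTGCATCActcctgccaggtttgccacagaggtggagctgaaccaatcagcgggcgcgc
ASNS (chr7:97872409-97872508, minus strand): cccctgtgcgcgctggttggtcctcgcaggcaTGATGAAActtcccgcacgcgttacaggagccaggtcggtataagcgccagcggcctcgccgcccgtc
HERPUD1 (chr16:56931942-56932041, plus strand): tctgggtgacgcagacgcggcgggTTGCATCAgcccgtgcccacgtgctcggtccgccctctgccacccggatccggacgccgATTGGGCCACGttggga
HSPA5 (chr9:125241374-125241473, minus strand): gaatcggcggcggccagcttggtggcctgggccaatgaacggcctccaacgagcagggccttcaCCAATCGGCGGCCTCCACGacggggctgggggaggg
The CARE letters were found for 4 of the 10 genes (ATF3, CHAC1, ASNS and HERPUD1), and in 3.62% of all 35116 windows. In CHAC1 and HERPUD1 they lay on the opposite strand, as TTGCATCA. ERSE was found for HSPA5 alone among the 10 and in 0.0769% of all windows, ERSE-II for HERPUD1 and in 0.0541%, and CRE for PPP1R15A and in 1.85%. Members were counted by gene over all their windows and the background by window, so a gene with several starts had several chances of a match. These matches describe letters only, within this window.

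For the 19458 probe sets of an array, the median log2 value lay between 7.41 and 7.80 in knockout arrays and between 7.36 and 7.71 in wild-type arrays. Knockout array 2 and wild-type array 1, which had the highest medians, resembled each other (r = 0.924 across probe sets) more than knockout array 2 resembled knockout arrays 1 (0.876) and 3 (0.893), so differences of the genes that the comparison turns on are given without both of these arrays as well. BRCA2 itself was not analysed here. Of 12 markers of colon epithelium fixed for this purpose, KRT18 averaged 12.28 ± 0.05 in knockout and 12.00 ± 0.05 in wild-type arrays (log2, SD, n = 3 each), whereas KRT20 lay at 5.95 ± 0.68 in knockout and 5.93 ± 0.20 in wild-type arrays. The mean over the 12 markers was between 8.35 and 8.90 in knockout and between 8.22 and 8.58 in wild-type arrays. The genotypes did not overlap for 4 markers, all higher in the knockout, as held for 12% of all probe sets. The mean over 7 fibroblast and endothelial markers was between 5.93 and 6.91 in knockout and between 5.74 and 6.53 in wild-type arrays. Over the 3 measured lymphocyte and myeloid markers it was between 6.97 and 7.85 in knockout and between 6.20 and 7.37 in wild-type arrays. The samples were cultured HCT116 cells, and the source of these marker signals was not tested. All values of the 10 genes lay between 6.97 and 12.79. The wild-type values of ATF3 (7.63, 7.20 and 6.97 on arrays 1, 2 and 3) lay below the medians of their arrays (7.71, 7.36 and 7.48). Whether these values were above background was not tested.

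The comparison of genotypes asked whether these stress genes differed in cells without BRCA2 for which no stress agent is named. ATF3 had the largest difference, with an RNA level 2.95-fold as high in the knockout as in the wild type. CHAC1, a target of the ATF4 and CHOP branch, was 1.80-fold as high. HERPUD1, of the degradation machinery of the endoplasmic reticulum, was the member furthest in the other direction, 1.56-fold higher in the wild type. None of the 10 passed an adjusted p of 0.05 in limma, where 0.57% of all probe sets did, 0.416% as higher and 0.154% as lower in the knockout. Before adjustment (p under 0.05), 2 members were higher in the knockout (6.92% of all probe sets) and 1 was lower (5.28%). In all, 8 members had a positive and 2 a negative log2 difference, with a median of 0.34, against 0.02 over all probe sets, of which 51.3% were positive. The marker lists of cell types also had positive medians, 0.30 for colon epithelium (10 of 12 higher), 0.36 for fibroblast and endothelial genes (6 of 7) and 0.51 for lymphocyte and myeloid genes (3 of 3). In RNA from whole cultures, a change in every cell and a change in a share of the cells cannot be told apart.

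**Figure D1:**
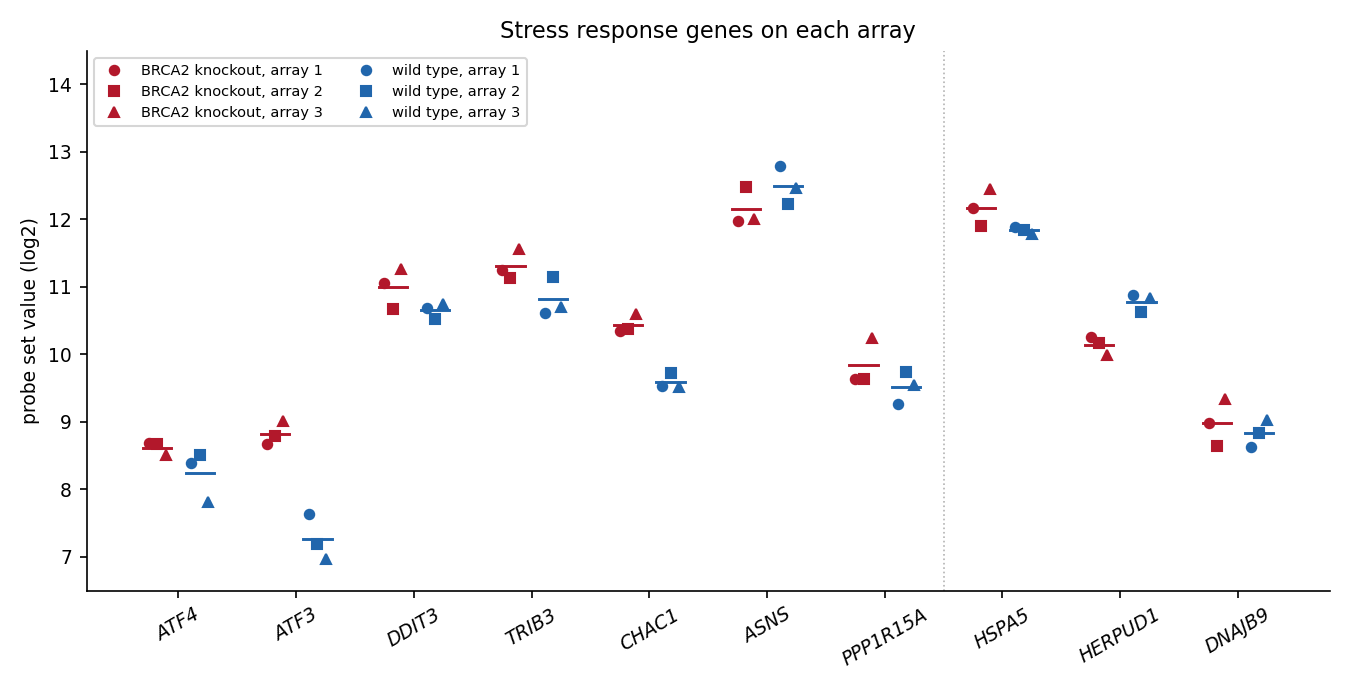
Log2 probe set values (vertical axis) of the 10 genes on each array, with knockout arrays in red, left of wild-type arrays in blue. Symbols stand for array numbers, bars for means of 3 arrays, and the dotted line parts the ATF4 branch from genes of the endoplasmic reticulum. The knockout values of ATF3 (8.67 to 9.02) and CHAC1 (10.35 to 10.60) lie above all wild-type values, and those of HERPUD1 (9.99 to 10.25) below.

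ATF4, the transcription factor at the head of the pathway, was read from probe set 3945914. Its value was 8.68, 8.67 and 8.50 on knockout arrays 1, 2 and 3, against 8.39, 8.50 and 7.82 on wild-type arrays 1, 2 and 3. Knockout array 3 and wild-type array 2 were level to the second decimal, so the genotypes touched, and wild-type array 3 was the low one. The difference was 0.38 ± 0.28 (SE), with a 95% interval from -0.28 to 1.05 and an adjusted p of 0.629. It was 0.17 without wild-type array 3 and 0.69 with array weights. Here and for every gene below, the array weights rested on wild-type array 3 (weight 6.96, against 0.401 to 1.04 for the others).

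ATF3, a bZIP repressor and activator that is induced within a short time by many stresses, was read from probe set 2379132. It gave 8.67, 8.79 and 9.02 on knockout arrays 1, 2 and 3, against 7.63, 7.20 and 6.97 on wild-type arrays 1, 2 and 3. Every knockout array was above every wild-type array, as held for 12% of all probe sets, and the gap between the nearest arrays was wider than the spread within either genotype. The means were 8.83 ± 0.18 in knockout and 7.27 ± 0.33 in wild type (SD, n = 3 arrays each), a difference of 1.56 ± 0.28 (SE) with an interval from 0.90 to 2.22. The adjusted p was 0.0843 (unadjusted 0.000806), and 111 probe sets passed, with unadjusted p of at most 0.000279. The difference kept its direction in all 17 alternatives, between 1.41 and 1.81, with adjusted p from 0.0134 to 0.551, and passed in 3 of them: without the dimmest 30% of probe sets (0.0293), with a variance trend (0.0155) and with array weights (0.0134). Dim filters, floors, variance models, a block for replicate number and averaged probe sets cannot move this estimate. Its direction was thus open only in the other alternatives. Without the 2 arrays of highest median the difference was 1.76 (adjusted p = 0.195).

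The difference of ATF3 was larger than that of its activator ATF4 on the same arrays. The value of ATF3 minus that of ATF4 was -0.01, 0.12 and 0.52 on knockout arrays 1, 2 and 3, against -0.76, -1.31 and -0.84 on wild-type arrays 1, 2 and 3. This quantity, which does not depend on the overall brightness of an array, differed by 1.18 between the genotypes without overlap. An exact permutation test over arrays (two-sided) returned p = 0.1, and a design of 3 against 3 cannot go lower. The pair was chosen after the values had been seen.

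DDIT3 encodes CHOP, the bZIP factor that turns a lasting stress response towards cell death. Probe set 3458587 gave 11.06, 10.67 and 11.27 on knockout arrays 1, 2 and 3, against 10.69, 10.52 and 10.75 on wild-type arrays 1, 2 and 3. Knockout array 2 fell among the wild-type arrays. The difference was 0.35 ± 0.27 (SE; 95% interval -0.28 to 0.98, adjusted p = 0.646). It was 0.21 without knockout array 3 and 0.53 without the 2 arrays of highest median.

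TRIB3 encodes a pseudokinase that is induced by ATF4 and CHOP and restrains both. Probe set 3873160 gave 11.25, 11.13 and 11.57 on knockout arrays 1, 2 and 3, against 10.62, 11.14 and 10.70 on wild-type arrays 1, 2 and 3. Wild-type array 2 reached the lowest knockout array, and the other two wild-type arrays were lower. The difference was 0.50 ± 0.28 (SE; interval -0.15 to 1.15, adjusted p = 0.524).

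CHAC1, which encodes an enzyme that breaks down glutathione, was read from probe set 3590275. Its values were 10.35, 10.37 and 10.60 on knockout arrays 1, 2 and 3, against 9.53, 9.73 and 9.52 on wild-type arrays 1, 2 and 3. The genotypes did not overlap, and the arrays of each genotype lay close together. The means were 10.44 ± 0.14 in knockout and 9.59 ± 0.12 in wild type (SD, n = 3 arrays each). The difference of 0.85 ± 0.24 (SE) had an interval from 0.28 to 1.42, an unadjusted p of 0.00956 and an adjusted p of 0.231. Over the alternatives it ran from 0.76 to 0.93 with adjusted p from 0.0492 to 0.736, and passed with array weights alone. Without the 2 arrays of highest median it was 0.85 (adjusted p = 0.349).

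ASNS encodes asparagine synthetase, a classic target of ATF4 when amino acids run short. Probe set 3062576 gave 11.98, 12.47 and 12.00 on knockout arrays 1, 2 and 3, against 12.79, 12.22 and 12.46 on wild-type arrays 1, 2 and 3. Knockout array 2 stood among the wild-type arrays and the other two knockout arrays below them. The difference was -0.34 ± 0.29 (SE; interval -1.02 to 0.33, adjusted p = 0.677). It was negative in all alternatives that could move it, though -0.19 without wild-type array 1, whereas that of CHAC1 was positive in the same ones. CHAC1 minus ASNS was -1.62, -2.10 and -1.40 on knockout arrays 1, 2 and 3, against -3.26, -2.49 and -2.95 on wild-type arrays 1, 2 and 3. The genotypes differed by 1.19 in this quantity without overlap (exact permutation test, two-sided, p = 0.1, the smallest possible), for a pair chosen after the values had been seen.

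PPP1R15A encodes GADD34, the subunit that guides a phosphatase to eIF2 alpha and so ends the block of translation. Its probe set, 3838004, ranged from 9.64 to 10.25 on knockout arrays and from 9.27 to 9.74 on wild-type arrays. The genotypes overlapped, and knockout array 3 alone was above all wild-type arrays. The difference was 0.33 ± 0.29 (SE; interval -0.36 to 1.02, adjusted p = 0.695), and it was 0.12 without knockout array 3 and 0.20 without wild-type array 1.

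Among genes of the endoplasmic reticulum, HSPA5 encodes BiP, the major chaperone of its lumen and the standard gauge of the unfolded protein response. Probe set 3225398 gave 12.17, 11.90 and 12.45 on knockout arrays 1, 2 and 3, against 11.89, 11.85 and 11.79 on wild-type arrays 1, 2 and 3. The genotypes parted by a margin that shows only in the second decimal, and the knockout arrays were the more scattered, with an SD of 0.27 against 0.05 in wild type. The difference was 0.33 ± 0.26 (SE; interval -0.28 to 0.94, adjusted p = 0.648), and it was 0.19 without knockout array 3.

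HERPUD1 encodes a membrane protein that gathers the machinery for degradation of misfolded proteins, and in human cells it is induced through ERSE-II and by ATF4. Probe set 3662387 gave 10.25, 10.17 and 9.99 on knockout arrays 1, 2 and 3, against 10.88, 10.64 and 10.84 on wild-type arrays 1, 2 and 3. All knockout arrays were below all wild-type arrays, as held for 7.7% of all probe sets. The means were 10.14 ± 0.13 in knockout and 10.78 ± 0.13 in wild type (SD, n = 3 arrays each). The difference of -0.64 ± 0.24 (SE) had an interval from -1.21 to -0.07, an unadjusted p of 0.0318 and an adjusted p of 0.353. It was negative in all alternatives that could move it, from -0.74 to -0.57, and was -0.62 without the 2 arrays of highest median (adjusted p = 0.436).

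HSPA5 and HERPUD1 are both textbook targets of the unfolded protein response. HSPA5 minus HERPUD1 was 1.92, 1.73 and 2.45 on knockout arrays 1, 2 and 3, against 1.01, 1.21 and 0.95 on wild-type arrays 1, 2 and 3. The genotypes differed by 0.98 in this quantity without overlap (exact permutation test, two-sided, p = 0.1, the smallest possible), again for a pair chosen after the values had been seen. Among the 4 genes whose windows hold CARE, the estimates of ATF3 and CHAC1 were positive and those of ASNS and HERPUD1 negative, although the interval of ASNS includes 0. ERSE stood before HSPA5, whose interval also includes 0, and ERSE-II before HERPUD1.

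DNAJB9 encodes ERdj4, a co-chaperone of BiP that is induced by IRE1 and XBP1. Its probe set, 3018866, ranged from 8.64 to 9.34 on knockout arrays and from 8.63 to 9.03 on wild-type arrays, and the genotypes overlapped almost throughout. The difference was 0.16 ± 0.29 (SE; interval -0.52 to 0.84, adjusted p = 0.854), and its sign turned without knockout array 3 (-0.02). It was 0.33 without knockout array 2 and 0.06 without wild-type array 1.

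**Figure D2:**
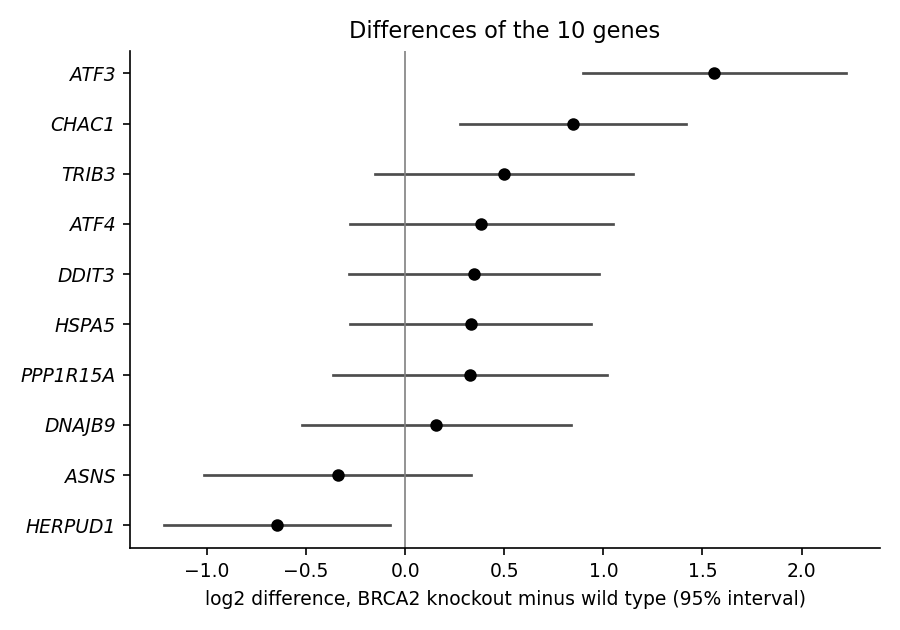
Log2 difference between BRCA2 knockout and wild type (horizontal axis, points) with its 95% interval from the moderated fit (lines) for each of the 10 genes, 3 arrays per genotype. The intervals of ATF3 (0.90 to 2.22) and CHAC1 (0.28 to 1.42) lie above 0, that of HERPUD1 (-1.21 to -0.07) below 0, and the other 7 include 0. The intervals are not adjusted for the number of probe sets.

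In order of their differences the genes ran ATF3, CHAC1, TRIB3, ATF4, DDIT3, HSPA5, PPP1R15A, DNAJB9, ASNS and HERPUD1. From TRIB3 to DNAJB9, neighbours in that order differed by at most 0.17 in log2 difference, less than the standard error of either. The genotypes did not overlap for 4 of the 10 genes, 3 higher and 1 lower in the knockout, where 19.7% of all probe sets did not overlap in either direction. Knockout array 3 gave the highest of the 6 values for 7 of the 10 genes (ATF3, DDIT3, TRIB3, CHAC1, PPP1R15A, HSPA5 and DNAJB9), and for 20.2% of all probe sets. The count was also 7 after each array was centred on its median, against 25.4% of all probe sets. Without that array the median difference of the 10 genes was 0.20 in place of 0.34, the part of knockout array 3 in these results was not otherwise tested, and no member was called with any single array left out.

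Kinases, phosphatase subunits and translation factors around eIF2 alpha were listed together, with PPP1R15A of the 10 genes among them. Of 17 measured genes, 10 were higher and 7 lower in the knockout (median 0.10). In limma 0 passed, where 0.57% of all probe sets did, and 0 before adjustment (p under 0.05), where 12.2% did. Without moderation 0 passed as well. EIF2B4, a subunit of the exchange factor that reloads eIF2, had the largest positive difference, 0.50 (adjusted p = 0.627), and EIF2B3, another subunit, the largest negative, -0.66 (adjusted p = 0.664). EIF2B4 was at 0.21 without wild-type array 2, and with 1 array left out EIF2B3 ran from -1.19 (without knockout array 2) to -0.36 (without wild-type array 1). EIF2AK4, which encodes GCN2, was at -0.31 ± 0.39 (SE), and its sign turned without wild-type array 1 (0.075). The sensors of the endoplasmic reticulum and their transcription factors were divided into 6 higher and 5 lower (median 0.02), with 0 called and 0 before adjustment (p under 0.05). ERN1, which encodes IRE1, was at 0.71 ± 0.30 (SE; unadjusted p = 0.0530, adjusted p = 0.416), with 8.79, 8.90 and 9.36 on knockout arrays 1, 2 and 3, against 8.70, 8.23 and 8.01 on wild-type arrays 1, 2 and 3. CREB3L1, a membrane-bound bZIP factor related to ATF6, was at 0.76 ± 0.37 (adjusted p = 0.472), and at 0.46 without wild-type array 1. Its relatives CREB3L3 (-0.62 ± 0.46) and CREB3L4 (-0.56 ± 0.29) had the largest negative differences, and all knockout arrays of CREB3L4 lay below all wild-type arrays. CREB3L3 was at -0.17 without knockout array 3 and at -0.96 without the 2 arrays of highest median. Its probe set was among the dimmest 30% (means of 5.10 in knockout and 5.73 in wild type), and whether these values were above background was not tested.

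**Figure D3:**
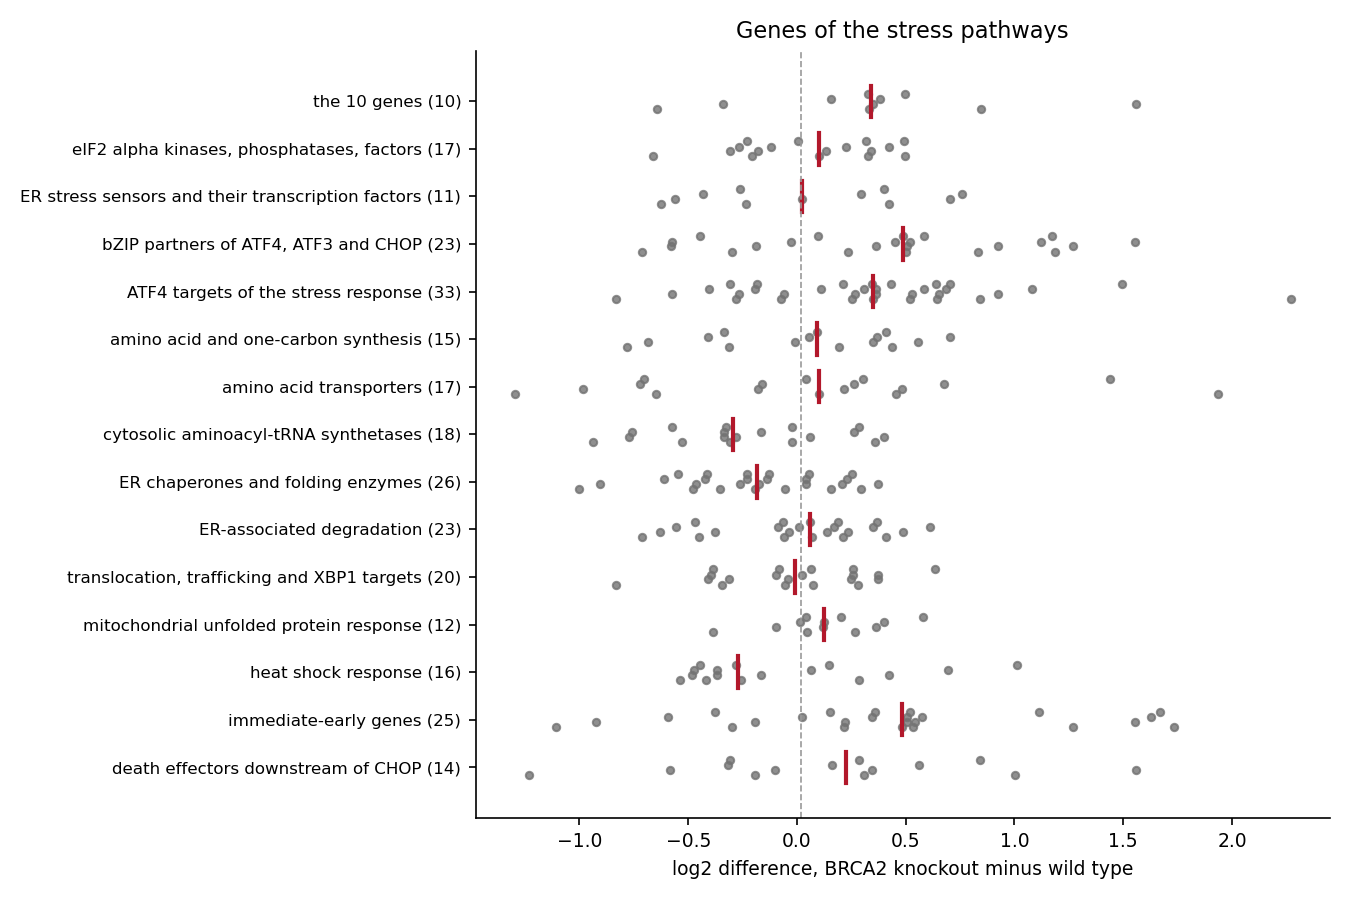
Log2 difference between BRCA2 knockout and wild type (horizontal axis) of each measured gene (grey points) in 14 pathway lists and in the 10 genes themselves, with the number measured in brackets. Red bars are medians and the dashed line is the median of all probe sets (0.02). The medians of bZIP partners (0.49) and immediate-early genes (0.48) lie furthest to the right, and those of aminoacyl-tRNA synthetases (-0.29) and heat shock genes (-0.27) furthest to the left.

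ATF4, ATF3 and CHOP act as dimers with other bZIP proteins, and most of these partners had positive differences. Of 23 measured partners, 16 were higher and 7 lower (median 0.49), 7 were higher and 0 lower before adjustment (p under 0.05), and 0 were called in limma. Knockout and wild-type arrays were fully separate for 60.9% of them, 11 higher and 3 lower, against 19.7% of all probe sets. Before adjustment, 6.92% of all probe sets were higher and 5.28% lower, and 0.57% were called. FOS, an AP-1 subunit and immediate-early gene, gave 8.70, 8.88 and 9.33 on knockout arrays 1, 2 and 3, against 7.22, 7.66 and 7.38 on wild-type arrays 1, 2 and 3. Its difference was 1.55 ± 0.28 (SE, adjusted p = 0.0893), close to that of ATF3, and like ATF3 it passed without the dimmest probe sets (0.0319), with a variance trend (0.0147) and with array weights (0.0175). JUN, the partner with which ATF3 and FOS form AP-1, was at 1.27 ± 0.31 (adjusted p = 0.170). BATF (-0.71 ± 0.53) and ATF7 (-0.58 ± 0.31), both of the same protein class, had the largest negative differences. BATF was at -0.20 without knockout array 2 and at -1.28 without knockout array 3. Its probe set was among the dimmest 30% (means of 5.23 in knockout and 5.94 in wild type), and whether these values were above background was not tested. ATF7 was at -0.33 without knockout array 3 and at -2.14 averaged with its other probe set, which was at -3.71.

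Since ATF3 is itself an immediate-early gene, that class was set beside it. Of 25 measured immediate-early genes, 19 were higher and 6 lower (median 0.48). CCN1, which encodes a secreted matricellular protein, was the only one called and rose by 1.73 ± 0.25 (SE, adjusted p = 0.0459), with 8.72, 8.69 and 8.50 on knockout arrays 1, 2 and 3, against 7.06, 6.65 and 7.00 on wild-type arrays 1, 2 and 3. Its call was lost with each array left out (adjusted p from 0.0992 to 0.230) and without the 2 arrays of highest median (0.190), although the difference stayed between 1.60 and 1.81. NR4A1, a nuclear receptor gene of rapid induction, was at 1.67 ± 0.28 (adjusted p = 0.0662). Not all went that way. DUSP6, a MAP kinase phosphatase gene that reports ERK activity, was at -1.11 ± 0.24 (adjusted p = 0.130) and KLF2, a zinc finger factor gene, at -0.93 ± 0.25 (adjusted p = 0.210). Before adjustment (p under 0.05), 6 genes were higher and 3 lower, against 6.92% and 5.28% of all probe sets. The genotypes did not overlap for 60% of the list (11 higher, 4 lower), against 19.7% of all probe sets. FOS, JUN and 3 further genes also stand among the bZIP partners, so the lists are not independent.

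**Figure D4:**
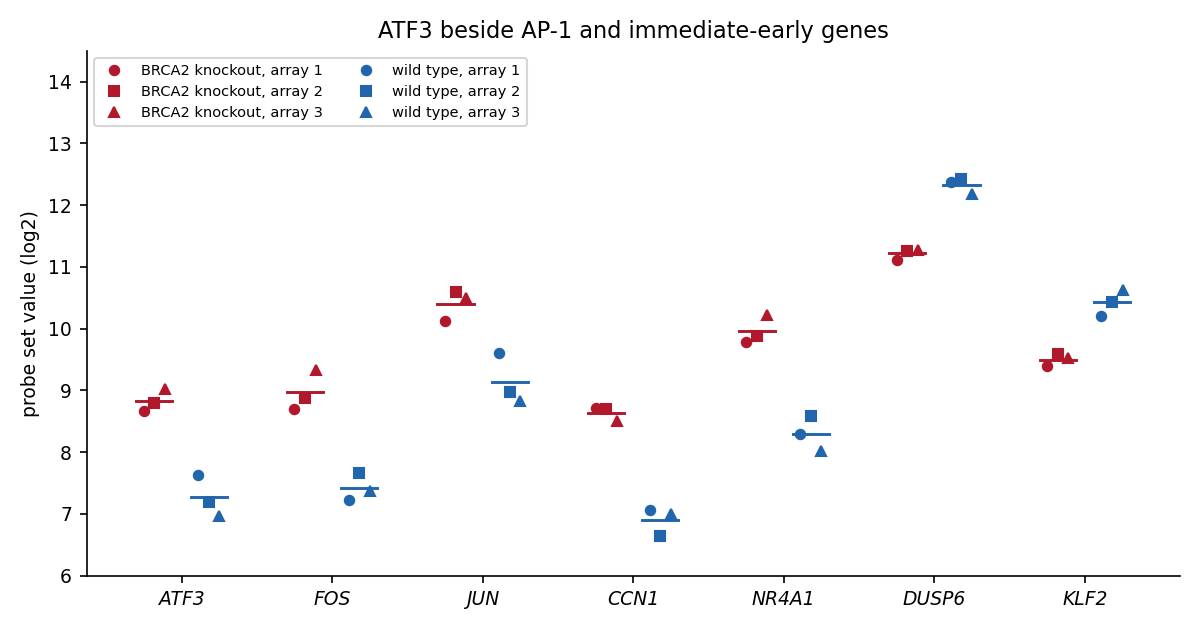
Log2 probe set values (vertical axis) of ATF3 and of AP-1 and immediate-early genes on each array, with knockout arrays in red, left of wild-type arrays in blue, and bars for means of 3 arrays. For ATF3, FOS, JUN, CCN1 and NR4A1 all knockout arrays lie above all wild-type arrays, and for DUSP6 and KLF2 all lie below. Levels of different genes are not comparable on this scale.

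Downstream, genes listed as stress targets of ATF4, other than the 10 genes, were mostly higher in the knockout, without a call in limma. Control of the listed genes by ATF4 in these cells was not tested. JDP2, CEBPB, CEBPG and ATF5 also stand among the bZIP partners, so the lists are not independent. Of 33 measured, 23 were higher and 10 lower (median 0.35), 7 were higher and 1 lower before adjustment (p under 0.05), and 13 did not overlap between genotypes (10 higher, 3 lower, or 39.4%). Over all probe sets, 6.92% were higher and 5.28% lower before adjustment, and 19.7% did not overlap. FGF21, a stress hormone gene, gave 6.70, 6.83 and 6.72 on knockout arrays 1, 2 and 3, against 5.26, 5.19 and 5.32 on wild-type arrays 1, 2 and 3. Its difference of 1.49 ± 0.23 (SE) had an adjusted p of 0.0531, which was under 0.05 in 4 of 16 alternatives. With a variance trend the adjusted p was 0.1. The probe set of FGF21 was among the dimmest 30%, so the filter on dim probe sets left it out, and whether its values were above background was not tested. TRIB2, a relative of TRIB3, had the largest difference of the list, 2.27 ± 0.45 (adjusted p = 0.104, and under 0.05 in 4 alternatives), between means of 8.01 ± 0.61 in knockout and 5.74 ± 0.64 in wild type (SD, n = 3 arrays each). In the other direction stood NDRG1, a gene of stress and differentiation, at -0.83 ± 0.27 (adjusted p = 0.289), and ATF5, a bZIP factor of the same translational control as ATF4, at -0.57 ± 0.30 (adjusted p = 0.498, and -0.35 without knockout array 3).

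The amino acid branch, to which ASNS belongs, was mixed. Among all probe sets, 6.92% were higher and 5.28% lower before adjustment (p under 0.05), and 0.57% were called. Of 15 measured genes of amino acid and one-carbon synthesis, 9 were higher and 6 lower (median 0.09), with 0 called and, before adjustment (p under 0.05), 0 higher and 1 lower, the mitochondrial aspartate aminotransferase gene GOT2 (-0.68 ± 0.25, adjusted p = 0.329). Amino acid transporters had 10 of 17 genes higher (median 0.10) and 0 called, with 3 higher and 2 lower before adjustment (p under 0.05). Both ends of that list were glutamate transporters, with SLC1A3 at 1.94 ± 0.36 (SE, adjusted p = 0.0927, and under 0.05 in 5 alternatives) and SLC1A1 at -1.30 ± 0.33 (adjusted p = 0.194). SLC1A3 gave 9.13, 10.07 and 9.37 on knockout arrays 1, 2 and 3, against 8.06, 7.33 and 7.37 on wild-type arrays 1, 2 and 3, with no overlap. Aminoacyl-tRNA synthetases, many of which ATF4 induces, had 13 of 18 genes lower (median -0.29), with 0 called, and 0 higher and 2 lower before adjustment (p under 0.05). KARS1, which charges lysine tRNA, was at -0.94 ± 0.24 (adjusted p = 0.188).

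The wider programme of the endoplasmic reticulum, to which HSPA5, HERPUD1 and DNAJB9 belong, had differences in both directions. Shares over all probe sets were 6.92% higher and 5.28% lower before adjustment (p under 0.05), and 0.57% called. Chaperones and folding enzymes had 9 of 26 genes higher and 17 lower (median -0.18), with 0 called, and 0 higher and 1 lower before adjustment (p under 0.05), the prolyl isomerase gene FKBP7 (-1.001 ± 0.36, adjusted p = 0.325). Their arrays did not overlap for 7.69% of genes, against 19.7% of all probe sets. The probe set of FKBP7 was among the dimmest 30%, and whether its values were above background was not tested. Degradation factors had 13 higher and 10 lower (median 0.06), with 0 called and, before adjustment (p under 0.05), 1 lower, OS9, a lectin gene for misfolded glycoproteins (-0.63 ± 0.24, adjusted p = 0.352). OS9 thus had a difference close to that of HERPUD1. Translocation and trafficking genes, including XBP1 targets, were divided into 10 higher and 10 lower (median -0.01), with 0 called, and 1 higher and 1 lower before adjustment (p under 0.05). These were the retrieval receptor gene KDELR3, at 0.64 ± 0.26 (adjusted p = 0.390), and the coat gene SEC24D, at -0.83 ± 0.33 (adjusted p = 0.371).

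Other protein stress programmes also made no calls in limma, where 0.57% of all probe sets passed. Before adjustment (p under 0.05), 6.92% of all probe sets were higher and 5.28% lower. Genes of the mitochondrial unfolded protein response had 10 of 12 members higher (median 0.12, 0 before adjustment (p under 0.05)), with the protease gene SPG7 at 0.58 ± 0.30. Heat shock genes had 6 of 16 higher (median -0.27), 2 of them and 0 lower before adjustment (p under 0.05), and the co-chaperone gene DNAJB1 was at 1.01 ± 0.25 (adjusted p = 0.179). Death effectors downstream of CHOP had 8 of 14 higher (median 0.22), with 3 higher and 1 lower before adjustment (p under 0.05). Their arrays did not overlap for 50% of genes (4 higher, 3 lower), against 19.7% of all probe sets. BCL2L11, which encodes the proapoptotic protein BIM and is induced by CHOP, gave 8.54, 9.19 and 8.98 on knockout arrays 1, 2 and 3, against 7.67, 6.94 and 7.43 on wild-type arrays 1, 2 and 3. Its difference was 1.56 ± 0.31 (adjusted p = 0.110, and under 0.05 in 3 alternatives). The survival gene BCL2, which CHOP is known to repress, was at 1.00 ± 0.31 (adjusted p = 0.255), and the stress kinase gene MAP3K5 was at -1.23 ± 0.40 (adjusted p = 0.284).

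The genes whose values followed ATF3 most closely over the 6 arrays were sought among 4250 genes with a mean of at least 6 and an SD of at least 0.5. They were CSRNP2 (Pearson r = 0.9979), GAREM1 (0.9975), TSPAN9 (0.9943), TNFAIP2 (0.9937) and COL9A3 (0.9934), none of which was called (differences from 0.95 to 1.39). With 2 genotypes of 3 arrays each, such a value mainly records a gap between the genotypes, and r was above 0.9 for 348 of the 4250. Among the other members, r with ATF3 was 0.952 for CHAC1, 0.779 for HSPA5, 0.742 for TRIB3, 0.720 for ATF4, 0.696 for DDIT3, 0.538 for PPP1R15A, 0.264 for DNAJB9, -0.485 for ASNS and -0.925 for HERPUD1.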

How the data were processed

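RNA from 3 BRCA2 knockout and 3 wild-type samples was depleted of ribosomal RNA and hybridised as biotin-labelled sense target to Affymetrix whole-transcript arrays, per the labels' protocols. The authors deposited summarised log2 probe set values whose medians differ between arrays. RMA, R 2.11.1 and hg18 are listed per the submitters' processing notes. The log2 scale was read from the values. Precision is limited by the number of arrays, which the labels call technical replicates of a genotype.

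No filter or further scaling was applied. Genotypes were compared with limma 3.58.1 (lmFit, eBayes; R 4.3.3) over all 19458 probe sets, two-sided, with Benjamini-Hochberg adjustment and a call at 0.05. Differences are knockout minus wild type. Symbols were updated through gene identifiers in a RefSeq table of GRCh38.p14, and of several probe sets of a gene the one of highest mean was taken. The code was tested on simulated data. The members and lists were chosen with earlier results of these data known, so no list was tested. From each list the text names called genes and those among the 2 largest differences in each direction. Listed genes without a probe set of 1 symbol were not analysed here. Alternatives were other scalings, filters, variance models, array weights, a replicate block, arrays left out and averaged probe sets. Same-numbered arrays did not deviate together (r = -0.238, -0.427 and 0.0582).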

Additional observations from a re-analysis of the deposited data

How the results depend on the processing

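The 10 genes were called in 0 cases as deposited, and also in 0 with any 1 array left out, with the replicate block, without moderation and without the 2 arrays of highest median. The count was 1 (ATF3, at 1.56) without the dimmest 30% of probe sets (adjusted p = 0.0293) and with a variance trend (0.0155), and 2 with array weights (ATF3 at 1.81, adjusted p = 0.0134, and CHAC1 at 0.93, 0.0492). Their median difference of 0.34 was 0.40 with array weights, 0.46 without the 2 arrays of highest median and from 0.20 to 0.45 with 1 array left out. DNAJB9 (0.16) ran from -0.017 without knockout array 3 to 0.33 with 1 array left out, and the other 9 genes kept their sign in all 17 alternatives. The dim filter, floor, variance models, replicate block and averaged probe sets could not move the estimates of the 10 genes. The sign was thus open only under other scalings, array weights and arrays left out. All probe sets called numbered 111 as deposited, 175 after median centring, 174 after quantile normalization, 184 without the dimmest 30%, 169 with values under 4 set to 4, 396 with a variance trend, 778 with array weights, 3 with the replicate block, 7 without the 2 arrays of highest median and from 24 to 63 with 1 array left out; the cause was not tested. The array weights rested on wild-type array 3, whose weight was 6.96, against 0.401 to 1.04 for the others. With the replicate number as a block, ATF3 had an adjusted p of 0.551 and CHAC1 of 0.736. The shared numbers did not pair the arrays, and no knockout array deviated most like the wild-type array of its own number. Knockout array 2 deviated most like wild-type array 1 (r = 0.489).

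Calls in the pathway lists depended on the setting. Immediate-early genes had 1 call as deposited, 2 after quantile normalization, 4 without the dimmest probe sets, 3 with the floor of 4, 7 with a variance trend, 7 with array weights, and 0 without moderation, with the replicate block, without the 2 arrays of highest median and with any 1 array left out (0 to 0). ATF4 targets had 0 as deposited, 1 after median centring, quantile normalization, the dim filter, the floor or without moderation, 2 with a variance trend and 3 with array weights. Amino acid transporters had 1 after median centring, quantile normalization and the dim filter, with a variance trend and with array weights. The bZIP partners had 1 with the dim filter and 4 with a variance trend or array weights. Death effectors had 1 in those same 3 settings, aminoacyl-tRNA synthetases 2 with a variance trend and 1 with array weights, and heat shock genes 1 in both. Among the other pathway genes whose differences are given, the sign turned in EIF2AK4 alone. It ran from -0.57 to 0.075 (without wild-type array 1) with 1 array left out. Cell type markers and the genes most like ATF3 were not put through the alternatives.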
